A study of Mus musculus with 416 samples.

Results

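Imprinted genes are transcribed mainly from the copy inherited from the mother or from the copy inherited from the father. The members described here are 34 known mouse imprinted genes, taken by name and matched through their Ensembl IDs to the 46517 gene IDs of the deposited table. All 34 passed the filter on low counts, which left 22968 genes for the tests. They lie on 9 chromosomes in 17 domains, clusters of neighbouring genes under a common imprinting control, of which 7 hold a single member. The libraries are 416 striatum samples of drug-naïve J:DO mice, the Diversity Outbred stock, an outbred stock bred from several inbred founder strains. No library had a treatment, and no other allele, agent or age is given by the labels. The labels give 76, 60 and 72 libraries of females from breeding generations 21, 22 and 23, and 74, 59 and 75 libraries of males from the same generations.

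In an imprinted domain a control region carries DNA methylation on a single parental copy, and that mark decides which genes of the cluster are read from which chromosome. Long noncoding RNAs such as Airn and Kcnq1ot1 silence neighbouring genes on the copy that makes them. In the brain several imprinted genes act in growth, feeding and maternal care, and a number of them are read from a single parental copy only in neurons. The deposited values add up both parental copies, so nothing here tells the copies apart, and founder alleles were not analysed here.

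The median library held 43516282 counts, and the extremes were 20331737 and 77458200. The spiny projection neuron score, the mean log2 CPM of 10 defining genes of the main striatal cell type, had a median of 9.01, but a single library lay at 2.71. CPM gives each gene's reads per fixed amount of sequencing, with TMM applied. In 29 libraries the Xist level, read against a limit of 100 CPM, went against the sex on the label. A low total or a low correlation with the other libraries marked 29 libraries, 14, 6 and 9 of them in generations 21, 22 and 23. The cortical excitatory neuron score averaged 0.968 ± 1.57, 1.52 ± 1.85 and 2.76 ± 1.65 (SD) in generations 21, 22 and 23, and the ependymal score averaged 2.01 ± 0.717, 1.87 ± 0.458 and 1.69 ± 0.424. In bulk tissue fewer cells of a type and less RNA per cell cannot be told apart.

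The levels of the imprinted genes spanned a wide range, from far above 1 CPM to below it. Together they took 0.605% to 1.18% of a library's counts, with a median of 0.835%. Meg3, a maternally expressed noncoding RNA, was the most abundant, with 2131, 3926 and 5267 CPM as lowest, median and highest value. Its median ranked 12th among the 22968 genes. Rian followed with a median of 835 CPM, then Peg3 with 572, Kcnq1ot1 with 563, Ube3a with 470.4 and Snrpn with 306.5 CPM. At the other end, H19 and Calcr had medians of 0.0912 and 0.109 CPM and were at 0 in their lowest libraries, and at 0.850 and 3.06 CPM in their highest. H19 is a maternal noncoding RNA of fetal tissues. The neighbours Peg3 and Kcnq1ot1 in this order overlapped over most of their range, 339.2 to 975 CPM for Peg3 and 332.3 to 671 CPM for Kcnq1ot1.

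Per kilobase of exon, the order changed. Meg3 had a median of 217.04 CPM per kilobase and Snrpn, whose annotated exons are short, 141.97. Nap1l5 came next with 57.9, ahead of Rian with 45.8, Peg3 with 42.9 and Peg13 with 41.6 CPM per kilobase. Kcnq1ot1, with 93.1 kilobases of annotated exon, fell back to 6.05 CPM per kilobase. The deposited values of 10 members were not whole numbers in any library (Usp29, Snrpn, Ube3a, Mest, Copg2, Inpp5f, Kcnq1ot1, Gnas, Zrsr1 and Commd1). Those of Zim1, Rian and Meg3 were not whole in 98.3%, 96.2% and 66.3% of libraries. Reads of these genes were not all counted as whole, so their levels are less certain.

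Among the genes that stand alone in their domain or are described only briefly further on, Impact had 121.7, 200.6 and 354.1 CPM as lowest, median and highest value, Inpp5f 87.9, 168.3 and 243.8 CPM, and Nap1l5 57.1, 106.8 and 310.3 CPM. Grb10 had 32.4, 48.1 and 79.7 CPM, and Zrsr1 29.6, 49.1 and 62.99 CPM. Rian ranged over 435 to 1063 CPM and Mirg over 37.1 to 127.3 CPM. These genes varied within a few-fold. Asb4, a gene of hypothalamic neurons that targets proteins for degradation, had 0.0472, 0.423 and 2.12 CPM. It rests on few counts per library, so its range cannot be set beside theirs. Ranked by SD of log2 CPM among genes of similar level, Asb4 lay at percentile 69.1. The genes named before it lay between 45.2 (Impact) and 82.7 (Nap1l5). Peg13 had 142.5, 196.7 and 460 CPM and its host Trappc9 had 33.6, 44.9 and 86.1 CPM.

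**Figure D1:**
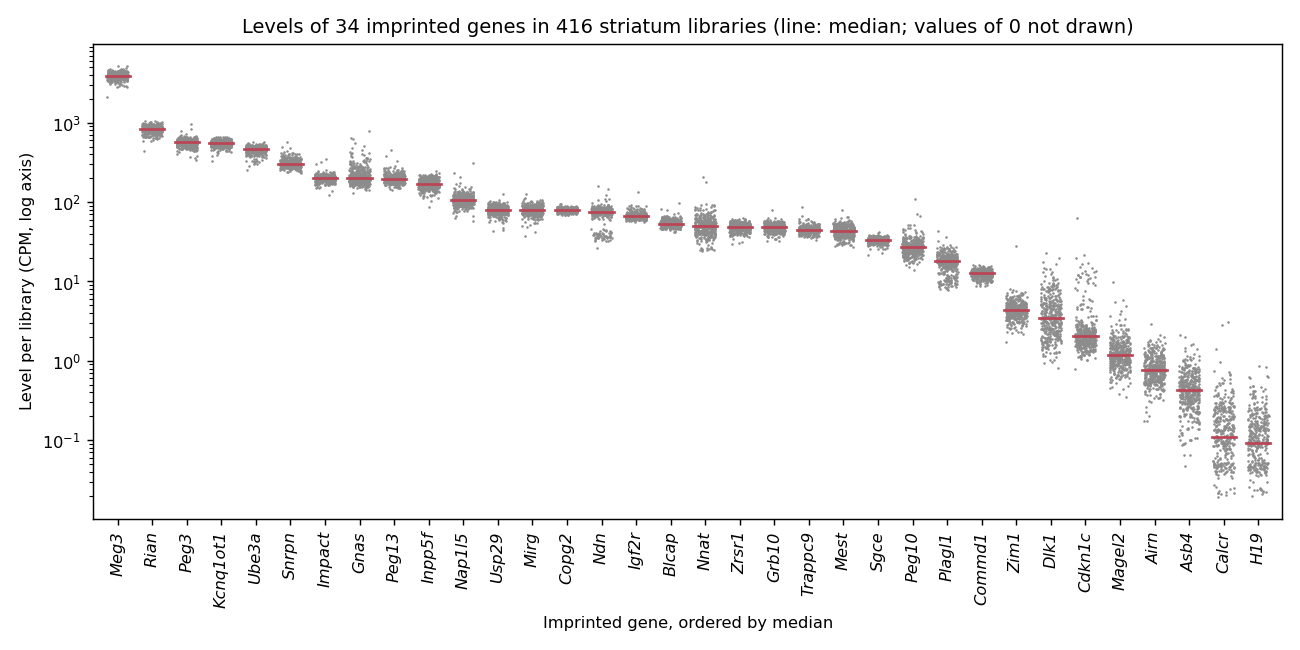
Level of each imprinted gene in each of the 416 libraries (CPM, log axis), ordered by median (red line); values of 0 are not drawn. Meg3 stands alone at the top with a median of 3926 CPM. Ndn shows a second, lower band of libraries, and Plagl1 a lower shoulder.

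Spread between libraries was set beside that of all genes of similar level. The SD of log2 CPM was ranked among genes of the same mean level bin, as a percentile. The members' median percentile was 67.6, and 25 of 34 lay above 50. Dlk1 (96.1), Gnas (95.6), Nnat (95.4), Ndn (95.2), Plagl1 (92.3), Cdkn1c (91.6) and Peg10 (90.1) lay above 90. Copg2, a subunit of the COPI vesicle coat, was at the other extreme with a percentile of 2.44, between 68.8 and 95.7 CPM in all 416 libraries. Once sex, generation and 14 cell type marker scores were fitted, 5 members still lay above 90 (Ndn 97.6, Dlk1 96.4, Nnat 95.3, Plagl1 94.99 and Peg10 94.95). Gnas then fell to 71.3 and Cdkn1c to 55.5. The fitted terms took a median of 34.3% of the variance of a member, against 21.03% over all genes tested, with 87.4% for Gnas and 83.1% for Cdkn1c.

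The shape of each distribution was described by how much better 2 normal components of equal variance fitted log2 CPM than 1, as a gain in BIC. A gain over 10 was found for 16 of 34 members, beside 40.3% of all genes tested. Without the 29 libraries of low total or correlation it was 7 of 34 members, beside 30.1% of all genes, so both the count and its background were lower without them. In residuals after sex, generation and marker scores, 7 of 34 members passed, beside 25.5% of all genes, and 5 passed in both. Such a gain can rest on few libraries. In residuals the upper component held 1 library for Igf2r and 4 for Peg10, and the lower component held 2 for Kcnq1ot1. Ndn, Plagl1, Commd1 and Inpp5f, described below, were the others that passed in residuals. Read against these backgrounds, the counts say little of imprinted genes as a class. The individual genes differed widely. Ndn had a gain of 428 and of 334.99 in residuals, whereas Cdkn1c had 270.9 and then −12.2, and Ube3a had 104.4 and then −12.1.

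Ndn encodes necdin, a MAGE family protein of postmitotic neurons that is expressed from the paternal copy and is lost in Prader-Willi syndrome. Its values fell into 2 separate groups of libraries. In 53 libraries Ndn lay between 26.1 and 45.8 CPM with a median of 37.9, and in all other libraries it lay between 52.6 and 157.6 CPM with a median of 77.1. No library lay between 45.8 and 52.6 CPM. The library at 52.6 CPM stood apart from both groups, and the fitted mixture of log2 CPM placed it with the lower one, giving 54. The fitted components had means 2.05-fold apart. The lower group made up 12.7% of the libraries (95% Wilson interval 9.87% to 16.3%, counting error only).

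The lower Ndn group was present in every labelled group. It held 7 of 76, 6 of 60 and 10 of 72 libraries of females in generations 21, 22 and 23, and 11 of 74, 12 of 59 and 7 of 75 of males. Over the generations the shares were 12.0%, 15.1% and 11.6% in generations 21, 22 and 23, with intervals of 7.73% to 18.2%, 9.79% to 22.7% and 7.35% to 17.7%, which overlap. Females had 11.1% (7.48% to 16.1%) and males 14.4% (10.3% to 19.8%), which overlap too. Sex, generation and marker scores took 13.1% of the variance of Ndn. Among genes of the same chromosome 7 domain, residual gains were 30.2 for the noncoding Snhg14, 13 for Mkrn3, −8.40 for Snrpn, −9.60 for Snurf, −12.1 for Ube3a, −12.2 for Magel2 and −0.6 for Atp10a. A residual gain over 10, as for Snhg14 and Mkrn3, was found for 25.5% of all genes, and whether their libraries are those of the lower Ndn group was not tested.

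The bases before the start of Ndn are shown because Ndn had the largest gain of the 34, beside those of Plagl1 and Nnat, other members with a wide spread, and the stretch shared by Peg3 and Usp29. Capitals mark CpG, the dinucleotide that carries DNA methylation. The sequences are from RefSeq.
Ndn (GRCm38.p6 chr7:62348027-62348276, plus strand): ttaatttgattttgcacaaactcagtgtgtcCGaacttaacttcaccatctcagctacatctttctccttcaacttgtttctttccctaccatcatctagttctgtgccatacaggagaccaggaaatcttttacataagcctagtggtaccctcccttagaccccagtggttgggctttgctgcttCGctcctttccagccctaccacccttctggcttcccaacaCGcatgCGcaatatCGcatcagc
Plagl1 (GRCm38.p6 chr10:13090582-13090831, plus strand): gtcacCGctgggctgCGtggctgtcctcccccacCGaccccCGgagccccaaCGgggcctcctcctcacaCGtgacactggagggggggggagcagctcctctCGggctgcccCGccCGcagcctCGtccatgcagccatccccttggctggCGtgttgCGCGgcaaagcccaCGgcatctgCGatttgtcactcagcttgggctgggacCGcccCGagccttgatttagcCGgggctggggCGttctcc
Nnat (GRCm38.p6 chr2:157559828-157560077, plus strand): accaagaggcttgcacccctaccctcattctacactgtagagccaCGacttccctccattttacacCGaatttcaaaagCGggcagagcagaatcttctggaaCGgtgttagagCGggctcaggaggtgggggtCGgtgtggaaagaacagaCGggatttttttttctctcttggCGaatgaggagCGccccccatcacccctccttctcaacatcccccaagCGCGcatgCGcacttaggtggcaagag
Peg3 to Usp29 (GRCm38.p6 chr7:6730420-6730582, plus strand): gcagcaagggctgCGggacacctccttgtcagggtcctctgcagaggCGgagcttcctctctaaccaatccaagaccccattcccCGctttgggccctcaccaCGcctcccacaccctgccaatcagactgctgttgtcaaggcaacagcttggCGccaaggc
The 250 bases before Ndn held 5 CpG, those before Plagl1 19 and those before Nnat 12. The starts of Peg3 and Usp29 lie on opposite strands at the ends of this stretch, which held 5 CpG. RefSeq promoter windows (250 bases before to 50 after a start) were matched by symbol for 27 of 34 members. Their 40 windows had a median of 14 CpG, against 7 over all 32851 windows of the table. The range ran from 0 CpG for Rian to 45 for a window of Grb10. The motif TGCCGC, read on both strands, was in 12 of the 40 windows (30%), beside 11.6% of all windows. It holds a CpG itself, and the members' windows held more CpG, so these shares are not like for like. Some windows also overlap, such as those of Mest that hold the motif. The 12 windows belong to 11 members: Nnat, Calcr, Mest, Copg2, Nap1l5, Zim1, Snrpn, Plagl1, Grb10, Commd1 and Meg3. A match in these letters describes the window and is no evidence of binding.

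**Figure D2:**
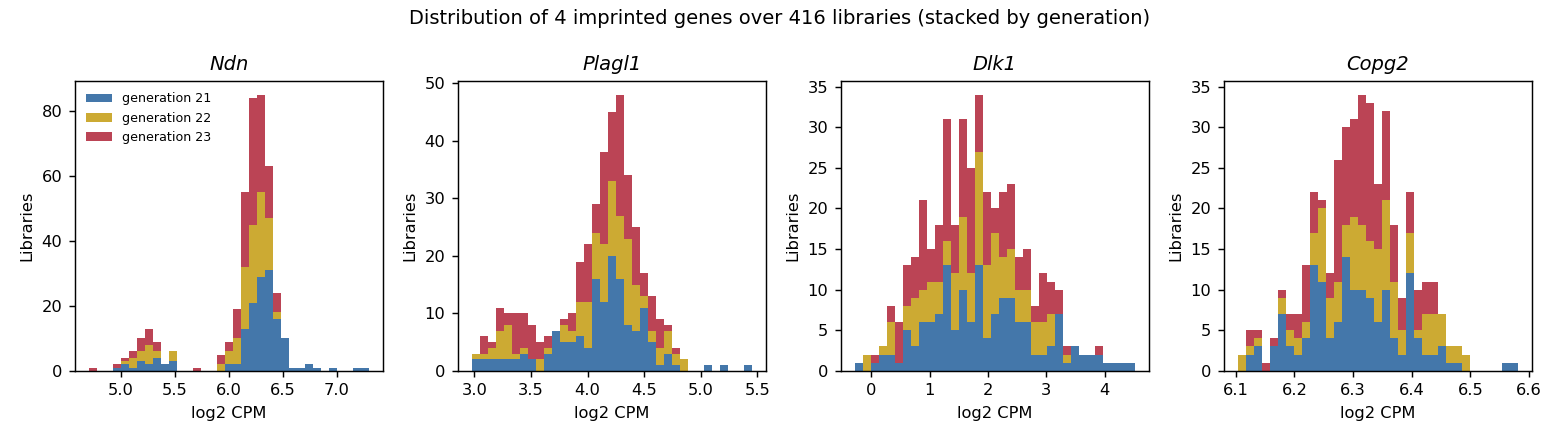
Number of libraries by log2 CPM of Ndn, Plagl1, Dlk1 and Copg2, stacked by generation. The lower Ndn group of 53 libraries is separated from all others by an empty interval and is made up of all 3 generations. Plagl1 has a lower shoulder, for which no gap was measured.

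Plagl1, a paternally expressed zinc finger factor that regulates other imprinted genes, had 7.88, 18.1 and 43.7 CPM as lowest, median and highest value. Its gain was 86.9 (rank 1799), and 138.8 in residuals (rank 617). The fitted components lay 1.80-fold apart, with 79 libraries assigned to the lower. A gap between neighbouring libraries was measured for Ndn only. Commd1, a copper metabolism gene that hosts Zrsr1 in an intron, was narrower, between 8.72 and 16.2 CPM. Its gain was 23.4 and 26.8 in residuals, with components 1.22-fold apart and 76 libraries in the lower. Inpp5f, an inositol phosphatase with a paternally expressed brain transcript, had a gain only in residuals (11.55), with components of similar size.

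The Dlk1-Dio3 domain on chromosome 12 gives the maternal noncoding RNAs Meg3, Rian and Mirg, hosts of small nucleolar RNAs and microRNAs, and the paternal growth factor gene Dlk1. For all pairs within a domain, permutation tests of 100000 resamples were two-sided and adjusted over 27 pairs. The smallest p they can give is 1e-05, which becomes an adjusted p of 2.08e-05. Over 416 libraries Meg3 and Rian correlated with r = 0.56 and rho = 0.49, both at that smallest permutation p. Leaving out the 2 libraries farthest in Meg3 gave 0.50, and the values within generations 21, 22 and 23 were 0.62, 0.41 and 0.46. Rian was the 3rd most correlated of 22967 genes for Meg3, after Cstf2 and Dzank1 (r = 0.58 and 0.56).

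Rian and Mirg correlated with r = 0.51 and rho = 0.51 at the same smallest permutation p, with r = 0.48, 0.62 and 0.69 in generations 21, 22 and 23. Rian was the 3rd gene in order for Mirg. Meg3 and Mirg, the outer genes of the noncoding run, had r = 0.22 (adjusted permutation p = 5.40e-05), which came to 0.06 in residuals after sex, generation and marker scores. There the adjusted p no longer passed, while Meg3 with Rian kept 0.45 and Rian with Mirg 0.47. The paternal Dlk1 had r = 0.30 with Meg3, 0.22 with Rian and 0.22 with Mirg, all at the smallest adjusted p. Dlk1 itself ranged from 0.824 to 22.9 CPM around a median of 3.42.

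The Peg3 domain on chromosome 7 holds the paternal zinc finger gene Peg3, whose loss disturbs maternal behaviour in mice, the paternal deubiquitinase gene Usp29 and the maternal Zim1. Peg3 had 339.2, 572 and 975 CPM as lowest, median and highest value and Usp29 had 43.2, 80.2 and 128.4 CPM. These neighbours, whose shared upstream stretch is printed above, correlated with r = 0.59 and rho = 0.50 at the smallest permutation p. The value was 0.57 without the 2 farthest libraries, 0.55 in residuals, and 0.60, 0.46 and 0.40 in generations 21, 22 and 23. Zim1, from the other parental copy, had 1.70, 4.32 and 27.8 CPM. It correlated with Usp29 at r = 0.38 and with Peg3 at r = 0.34, and those were the 4th and 10th strongest genes for Zim1 of 22967. Peg3 itself had closer company outside the domain: Edem3, Pik3ca and Hspa4l had r of 0.75, 0.75 and 0.74 with it.

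In the Prader-Willi and Angelman domain, Snrpn encodes a splicing protein and is paternal, and Ube3a, a ubiquitin ligase lost in Angelman syndrome, is maternal in neurons. Snrpn had 233.1, 306.5 and 567 CPM and Ube3a 254.4, 470.4 and 574 CPM as lowest, median and highest value. Their r was 0.11 (adjusted permutation p = 0.0302) and their rho 0.23 (2.08e-05), and r was 0.04, 0.27 and 0.40 in generations 21, 22 and 23, so the relation rested on the later generations. Ube3a was instead closest to Pura, Bmpr2 and Usp34, with r of 0.88, 0.83 and 0.83. Magel2, a MAGE gene next to Ndn that is highest in the hypothalamus, had 0.345, 1.199 and 9.92 CPM and did not pass by r with Snrpn (−0.06, adjusted permutation p = 0.214) or Ube3a (−0.10, 0.0546). By rho it did pass with Snrpn (−0.14, adjusted permutation p = 0.00517).

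As Ndn fell into separate groups, its relations were taken within each, adjusted over 6 tests. Within the upper group, Ndn with Magel2 had r = 0.54 and rho = 0.39 (adjusted permutation p = 3e-05 and 6e-05). That value was 0.45 without the 2 farthest libraries and 0.71, 0.37 and 0.30 in generations 21, 22 and 23. In the lower group of 53 libraries r was 0.04 (adjusted permutation p = 0.856). With Ube3a, Ndn had r = −0.35 in the upper group (adjusted permutation p = 3e-05) and −0.31 in the lower (0.0409). In the lower group rho was −0.25 and did not pass (adjusted permutation p = 0.101), and r was −0.38, 0.11 and −0.17 in generations 21, 22 and 23. In the upper group that r was −0.36, 0.09 and 0.20 in generations 21, 22 and 23, so in both groups it did not hold within the later generations. With Snrpn it had r = 0.22 in the upper group (1.60e-04 after adjustment of the permutation p) and 0.03 in the lower (0.856). Whether these relations differ between the groups of libraries was not tested.

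The Nnat domain on chromosome 2 is a micro-imprinted pair: the paternal Nnat, a small membrane protein of neurons and developing brain, lies within an intron of Blcap on the opposite strand. Nnat had 24.3, 49.6 and 210 CPM as lowest, median and highest value, and Blcap 41.99, 53.7 and 98.5 CPM. They had the strongest relation of the 24 pairs without Ndn, r = 0.62 and rho = 0.56, both at the smallest permutation p. It held in each generation (0.62, 0.65 and 0.48), was 0.56 without the 2 farthest libraries and 0.46 in residuals. Nnat was the 2nd most correlated of 22967 genes for Blcap, and Blcap the 3rd for Nnat. The kit was stranded per the labels, but whether counting used strand is not stated, so reads of such antisense pairs may not be told apart.

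Mest, a paternal hydrolase gene, and Copg2, which overlaps it on the opposite strand of chromosome 6, were each other's most correlated gene of 22967. Their r was 0.44 and rho 0.41 at the smallest permutation p, with 0.50, 0.45 and 0.32 in generations 21, 22 and 23 and 0.44 in residuals. Mest had 27.04, 43.9 and 79.6 CPM as lowest, median and highest value. Both genes are among those with values that were not whole in every library. Zrsr1, a splicing factor gene inserted in Commd1, had r = 0.30 and rho = 0.29 with its host, which came to 0.38 in residuals. Zrsr1 was the 6th gene in order for Commd1.

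In the Peg10 domain on chromosome 6, Peg10, a gene derived from a retrotransposon, and Sgce, epsilon-sarcoglycan, are paternal, and Asb4 and Calcr, the calcitonin receptor, are maternal in brain. Sgce was steady at 21.3, 33.002 and 41.6 CPM as lowest, median and highest value, and Peg10 ranged over 13.9, 26.9 and 108.99 CPM. The pair of opposite parental copies Peg10 and Calcr had r = 0.44 and rho = 0.34 at the smallest permutation p, and Calcr was the 5th gene in order for Peg10. Peg10 with Sgce had r = 0.22 (adjusted permutation p = 3.86e-05), Sgce with Calcr 0.14 (0.00548) and Peg10 with Asb4 0.13 (0.0109). Sgce with Asb4 and Asb4 with Calcr did not pass (r = 0.05 and 0.09, adjusted permutation p = 0.293 and 0.0728). Sgce lay closer to the striatal genes Alcam, Foxp2 and Pde4b, with r of 0.70, 0.68 and 0.68.

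Igf2r, the receptor that clears insulin-like growth factor 2, had 56.3, 66.2 and 135.1 CPM, and its antisense RNA Airn 0.172, 0.769 and 2.89 CPM. Their r of 0.12 (adjusted permutation p = 0.0173) was not borne out by rho (0.07, 0.173), and r was −0.001 in residuals and −0.014 without the 29 libraries of low total or correlation. Kcnq1ot1, the long noncoding RNA that silences Cdkn1c in cis, had 332.3, 563 and 671 CPM, and Cdkn1c, a cell cycle inhibitor, 0.789, 2.05 and 63.2 CPM. They had r = −0.05 (adjusted permutation p = 0.306) and rho = −0.11 (0.0269). In residuals r was −0.05, and in generations 21, 22 and 23 it was −0.05, 0.05 and −0.004. Cdkn1c had a higher median in 46 libraries described below, and the pair was not taken apart for them. Peg13, a noncoding RNA within Trappc9, had r = 0.31 and rho = 0.11 with its host at adjusted permutation p of 2.08e-05 and 0.0302. That relation rested on generation 21, with r of 0.55, 0.17 and 0.001 in generations 21, 22 and 23.

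In all, 19 of the 24 pairs without Ndn passed by r, each with a positive value. The median r was 0.22 over these 24 pairs and 0.05 over the 504 pairs from different domains, and in residuals the medians were 0.18 and 0.05. Yet single pairs between domains were as strong as any within. Snrpn with Peg13 had r = 0.65, Impact with Nap1l5 0.63, Snrpn with Gnas 0.62 and Igf2r with Cdkn1c 0.61. In residuals Impact with Nap1l5 kept 0.58, whereas Snrpn with Peg13 came to 0.30, Snrpn with Gnas to 0.37 and Igf2r with Cdkn1c to 0.17. The lowest value was −0.62 for Sgce with Gnas, and −0.20 in residuals. These are descriptions over the same 416 libraries, with no test.

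**Figure D3:**
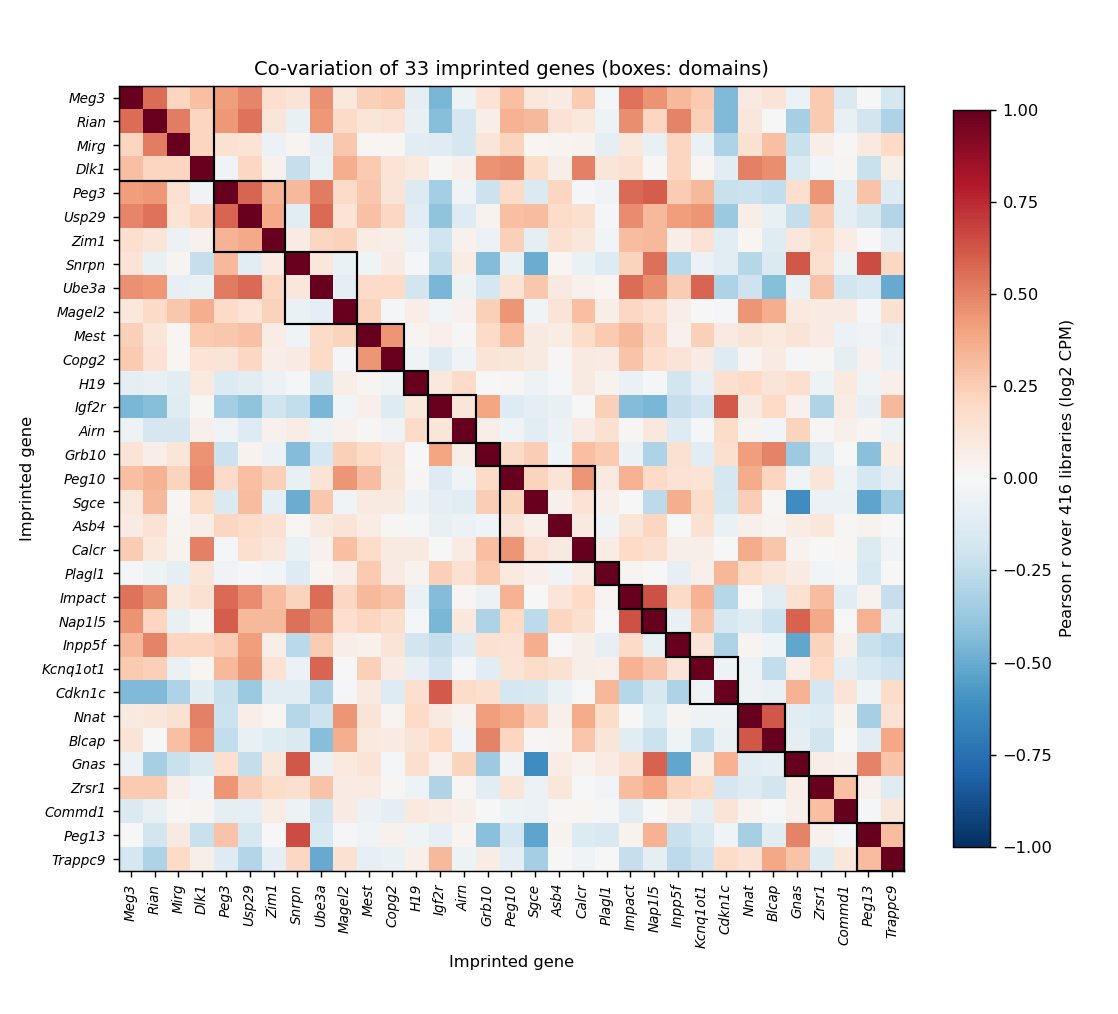
Pearson r of log2 CPM over 416 libraries for 33 imprinted genes (Ndn left out because its libraries form 2 groups), with a box round each domain. Nnat with Blcap (0.62), Peg3 with Usp29 (0.59) and Meg3 with Rian (0.56) stand out within domains, and Snrpn with Peg13 (0.65) between them.

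Gnas, which encodes the alpha subunit of the stimulatory G protein and has promoters of opposite imprinting, correlated with several marker scores. Striatal projection neurons use mainly the related Gnal. Gnas had 130, 199.4 and 793 CPM as lowest, median and highest value, and the library with 793 CPM was the library with the spiny score of 2.71. Gnas fell with the spiny projection neuron score (r = −0.76, rho = −0.74) and rose with the cortical excitatory neuron score (r = 0.73, rho = 0.81) and the thalamic score (r = 0.72, rho = 0.72). Within generations 21, 22 and 23 the r with the cortical score was 0.62, 0.84 and 0.87, and with the spiny score −0.74, −0.83 and −0.90. Each of these had a permutation p of 1e-05, the smallest possible, and an adjusted p of 4.62e-05 over 476 relations.

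Cdkn1c and Igf2r were set beside the choroid plexus score, the mean log2 CPM of 6 genes of the tissue that makes cerebrospinal fluid. That score separated 46 libraries with values from 3.74 to 8.601 from 370 libraries with −0.682 to 3.07, so relations were taken within each. In the 46 libraries Cdkn1c had 2.36, 9.99 and 63.2 CPM as lowest, median and highest value, against 0.789, 1.94 and 4.79 CPM in the 370. Within the 46, Cdkn1c rose with the score at r = 0.93 and rho = 0.95, Igf2r at r = 0.77 and rho = 0.82, and Plagl1 at r = 0.73 and rho = 0.73 (adjusted permutation p = 2.20e-04, 2.20e-04 and 7.33e-04). The unadjusted permutation p of r were 1e-05 for Cdkn1c and Igf2r and 9.999e-05 for Plagl1. Those are the smallest that 100000 and 10000 resamples can give, so they do not rank the genes. Cdkn1c and Igf2r held in the 16, 14 and 16 libraries of generations 21, 22 and 23, at r of 0.96, 0.99 and 0.87 for Cdkn1c and 0.85, 0.79 and 0.72 for Igf2r. In the 370 libraries r was 0.25 for Cdkn1c, 0.20 for Igf2r and 0.15 for Plagl1. Within generations 21, 22 and 23 of these it was 0.31, 0.04 and 0.009 for Cdkn1c, 0.09, 0.03 and 0.05 for Igf2r, and 0.18, 0.15 and 0.09 for Plagl1, so the values of Cdkn1c and Igf2r largely did not hold within generations.

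Other members moved less closely with a score. Nnat rose with the neurogenic niche score (r = 0.52, rho = 0.51) and Sgce with the spiny score (r = 0.51, rho = 0.35). Nap1l5 rose with the cortical score (r = 0.51, rho = 0.58) and Grb10, a growth factor receptor adaptor read from the paternal copy in neurons, fell with it (r = −0.50, rho = −0.50). In generation 21 these last r were 0.22 and −0.22.

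**Figure D4:**
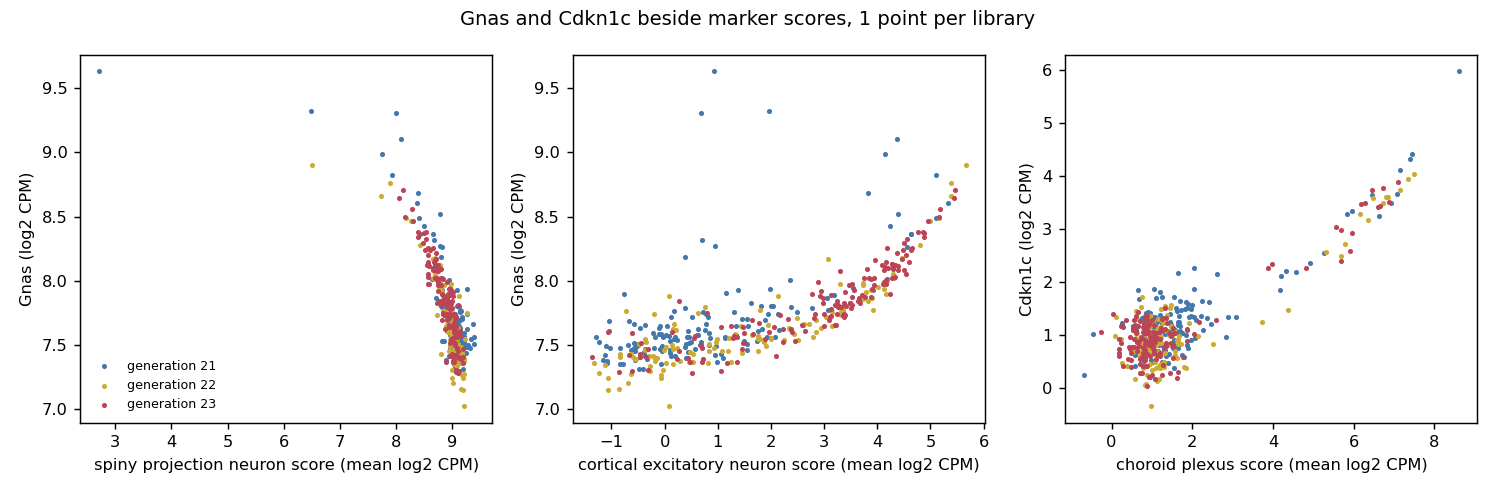
Log2 CPM of Gnas beside the spiny projection neuron and cortical excitatory neuron scores, and of Cdkn1c beside the choroid plexus score, with 1 point per library coloured by generation. Gnas is highest (793 CPM) where the spiny score is lowest (2.71), and Cdkn1c rises with the choroid plexus score within the 46 libraries above 3.07.

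The generations differed in many genes of the table, and the imprinted genes shared in this. Between generations 23 and 21, edgeR's quasi-likelihood test called 23 of 34 members at an adjusted p under 0.05 (67.6%), beside 58.3% of all genes tested. Of these, 11 were higher in generation 23, beside 25.8% of all genes, and 12 lower, beside 32.6%. The changes were small, from 1.04-fold to 1.45-fold either way with a median of 1.09-fold. The members' median log2 fold change was −0.0029, against −0.02 over all genes. Generation cannot be told apart from cohort, dissection or sequencing run, and the cortical score given above rose over the same generations.

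Among the genes that rose, Ube3a had medians of 436, 472 and 483 CPM in generations 21, 22 and 23, and a log2 fold change of 0.15 ± 0.02 (SE) for generation 23 minus 21 (edgeR adjusted p = 4.36e-19). Its ranges overlapped, 426 to 540 CPM in generation 23 against 254.4 to 574 CPM in generation 21, and the later generation was the narrower. Peg3 had medians of 541, 573 and 595 CPM (0.13 ± 0.02, edgeR adjusted p = 6.30e-13) and its neighbour Usp29 of 76.4, 81.6 and 82.5 CPM (0.13 ± 0.02, edgeR adjusted p = 1.11e-09). Nap1l5, a nucleosome assembly family gene, rose most, with medians of 99.7, 104.7 and 116.1 CPM (0.18 ± 0.03, edgeR adjusted p = 2.13e-10). Impact, a translation regulator, Kcnq1ot1, Zrsr1, Inpp5f, Rian, Mest and Meg3 rose too, by 0.12, 0.09, 0.10, 0.09, 0.08, 0.07 and 0.06 on the log2 scale.

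Among those that fell, Blcap had medians of 57.3, 53.2 and 51.3 CPM in generations 21, 22 and 23, and a log2 fold change of −0.16 ± 0.01 for generation 23 minus 21 (edgeR adjusted p = 1.64e-23). Trappc9, a vesicle tethering gene that hosts Peg13, had 47.3, 45.05 and 43.6 CPM (−0.14 ± 0.02, edgeR adjusted p = 5.45e-17). The ranges again overlapped, 33.6 to 50.4 CPM in generation 23 against 36.4 to 86.1 CPM in generation 21. Nnat (−0.24), Grb10 (−0.12), Igf2r (−0.09), Ndn (−0.12), Mirg (−0.06), Magel2 (−0.20) and Dlk1 (−0.37) fell as well. Ndn is counted here over both of its groups. The rest were scarce genes: Cdkn1c (−0.39), H19 (−0.40) and Calcr (−0.53), of which H19 and Calcr had libraries at 0.

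With 14 marker scores in the fit, 20 members were called for generation 23 minus 21, beside 46.5% of all genes. Of the 23 called before, 15 were called in this fit too, all with the same sign. Ube3a (0.11), Peg3 (0.10), Usp29 (0.14), Inpp5f (0.14), Blcap (−0.12) and Trappc9 (−0.11) were among them. Nnat (−0.02, edgeR adjusted p = 0.697), Dlk1 (−0.01, 0.946), Magel2 (−0.04, 0.731), Grb10 (−0.04, 0.0632) and Mest (−0.01, 0.891) were not, nor were Mirg, Calcr and H19. Gnas, Snrpn, Peg13, Sgce and Zim1 were called only in the fit with scores, at −0.09, −0.08, −0.06, 0.03 and 0.14. For Gnas, Snrpn, Peg13 and Sgce those signs are opposite to the uncalled values without scores (0.06, 0.01, 0.01 and −0.01). Without the 29 libraries of low total or correlation, Cdkn1c came to −0.05 (edgeR adjusted p = 0.686), Calcr to −0.31 (0.0775), Magel2 to −0.07 (0.416) and Ndn to −0.09 (0.0573), while Gnas came to 0.18 (3.65e-08). The direction for Gnas therefore turned with the fit.

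**Figure D5:**
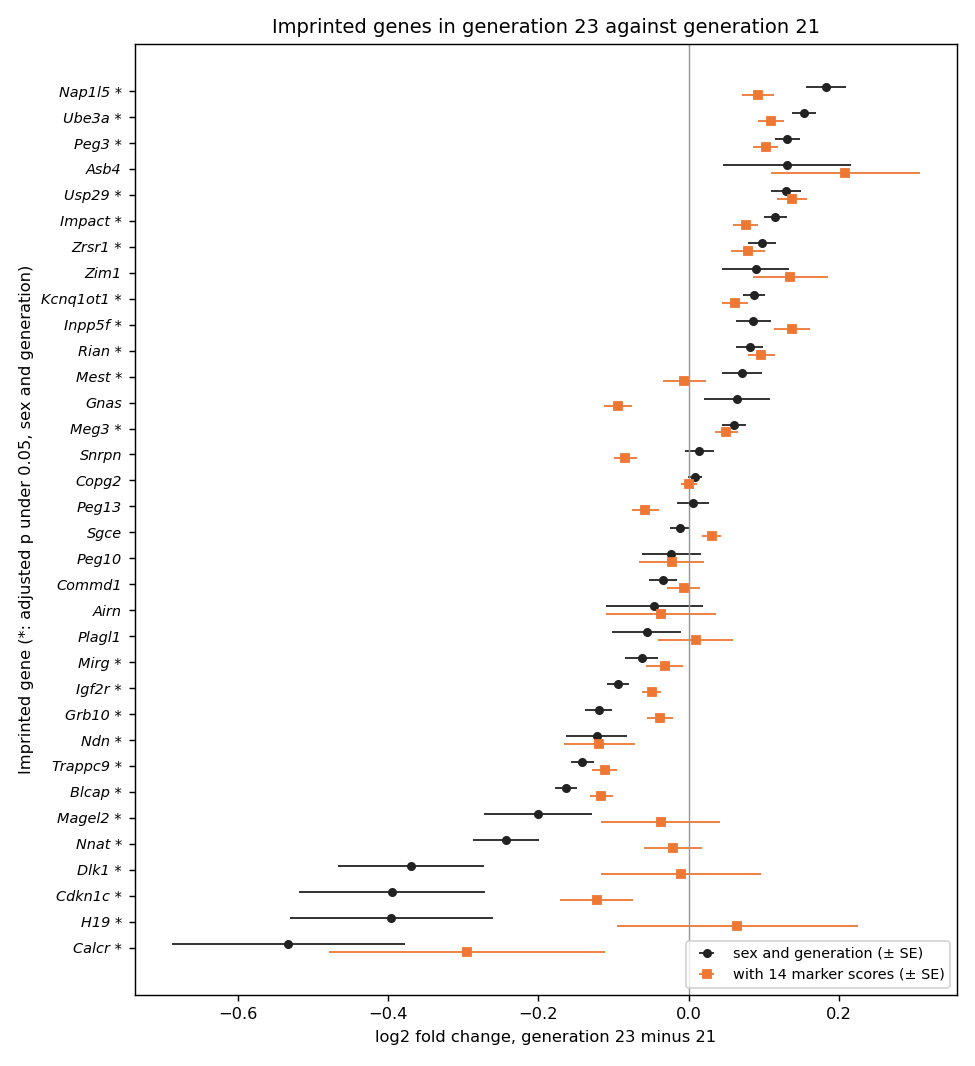
Log2 fold change of each member for generation 23 minus 21 (± SE), from the fit on sex and generation (black circles) and with 14 marker scores added (orange squares). Ube3a, Peg3 and Usp29 stay above 0 and Blcap and Trappc9 below it in both fits, whereas Dlk1 lies at −0.37 and Nnat at −0.24 without the scores, and at −0.01 and −0.02 with them.

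Between generations 22 and 21, 21 members were called (61.8%), beside 46.6% of all genes. Of them 8 were higher in generation 22 (22.1% of all genes) and 13 lower (24.5%). Ube3a (0.12 ± 0.02) and Usp29 (0.09 ± 0.02) were among the genes that rose, and Blcap (−0.13 ± 0.02) and Trappc9 (−0.09 ± 0.02) among those that fell. Gnas was called lower too, with means of 221.2 and 203.5 CPM in generations 21 and 22. With marker scores 14 were called, beside 40.2% of all genes, 13 of them shared with the first fit. Between generations 23 and 22, 10 members were called (29.4%), beside 18.2% of all genes. Of these 7 were higher in generation 23 (8.53% of all genes) and 3 lower (9.63%). Gnas (0.18 ± 0.05), Nap1l5 (0.14 ± 0.03), Zrsr1 (0.09 ± 0.02) and Snrpn (0.08 ± 0.02) rose, and Grb10, Igf2r and Trappc9 fell by 0.07, 0.07 and 0.05 on the log2 scale. With marker scores 4 were called, beside 5.52% of all genes. These comparisons share libraries, so their members' values are not independent.

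No difference between the labelled sexes was called for any of the 34 genes. None passed edgeR's quasi-likelihood test for female minus male, beside 2.86% of all genes tested, and none passed with DESeq2 or limma. At an unadjusted p under 0.05 edgeR gave 3 of 34, beside 17.2% of all genes. These were Peg3, with 573.5 ± 66.6 CPM in females and 560.7 ± 55.1 CPM in males (SD over all libraries of each sex, log2 fold change 0.04 ± 0.01, edgeR adjusted p = 0.156), Zrsr1 (−0.04 ± 0.02, edgeR adjusted p = 0.2001) and Rian (0.03 ± 0.01, edgeR adjusted p = 0.223). Without the 29 libraries against their label the count was also 0. The sex by generation interaction was called for no member by edgeR or DESeq2, beside 0.322% of all genes. Its lowest unadjusted edgeR p were 0.0318 for Nap1l5 and 0.0412 for Impact, the only 2 under 0.05 (adjusted p = 0.589 and 0.613). With marker scores in the fit, Rian (0.05, edgeR adjusted p = 0.0112) and Cdkn1c (−0.12, 0.0233) passed for sex, 2 of 34 (5.88%), beside 5.21% of all genes in that fit.

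A single library held the highest level of 10 members. This library, replicate 30 of females of generation 21, was highest in Dlk1, Usp29, Zim1, Ndn, Magel2, Mest, Copg2, Grb10, Peg10 and Plagl1, and highest in 1.54% of all genes tested. It had 9.92 CPM of Magel2, 8.27-fold the median of all libraries, 22.9 CPM of Dlk1 (6.70-fold), 27.8 CPM of Zim1 (6.42-fold) and 108.99 CPM of Peg10 (4.05-fold). Calcr (25.6-fold), Nap1l5, Nnat, Meg3 and Impact were 2nd highest there. Meg3, Rian and Ube3a were 1.32, 1.13 and 1.09-fold their medians, and Inpp5f and Sgce were among the lowest, at 0.766 and 0.870-fold.

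The same library stood apart in markers of other regions, and their part in these levels was not tested. Its raw CPM was the highest of all libraries for Gal (1.56) and Sim1 (1.45), genes of hypothalamic neurons, against medians of 0.0438 and 0 over all libraries. Oxt, Avp, Hcrt and Pmch had 1, 7, 2 and 17 counts in it, and none was at its highest there. Of the other genes in the same marker list, some lay near or below their medians. Zic1 had 9.06 CPM against 13.2, Nkx2-1 had 5.59 against 5.78 and Gbx1 had 2.02 against 2.07. Trh, with 1.91 against 0.821, and Trpc4, with 23.8 against 12.06, lay above theirs, and only 9 and 3 libraries lay higher. The score of the list was 2.36 in this library, against a median of 2.15. The cortical marker Slc17a7 had 312.5 CPM there against a median of 31.2, and the dopamine receptor gene Drd2, a marker of spiny projection neurons, had 52.2 against 125.4. These genes were looked up after the members' values in this library had been seen. It is among the 29 libraries marked for a low total or a low correlation.

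Beyond the members, 30 of 39 further imprinted genes were tested. The test for sex called 1 of 30 (3.33%, beside 2.86% of all genes), and 3 of 30 with marker scores (10%, beside 5.21% of all genes). The gene called without scores was Atp10a, a lipid flippase gene of the Prader-Willi and Angelman domain, which had a median of 9.27 CPM in females and 8.29 CPM in males (log2 fold change 0.15 ± 0.03, edgeR adjusted p = 6.85e-06). For generation 23 minus 21 it called 16 of 30 (53.3%, beside 58.3% of all genes), 4 higher and 12 lower (25.8% and 32.6% of all genes). With marker scores 10 of 30 were called (33.3%, beside 46.5% of all genes). Dio3, a deiodinase gene of the Dlk1 domain (−0.56 ± 0.12), Slc22a18 (−0.41 ± 0.13), Nespas (−0.25 ± 0.06) and Slc22a3 (−0.17 ± 0.05) fell, and the potassium channel gene Kcnk9 (0.39 ± 0.07) and Zdbf2 (0.21 ± 0.04) rose. With marker scores, Kcnk9 came to −0.08 (edgeR adjusted p = 0.0621), while Zdbf2 kept 0.25 (6.15e-07). For generation 22 minus 21, 16 of 30 were called (53.3%, beside 46.6% of all genes), 5 higher and 11 lower. For 23 minus 22 it was 5 of 30 (16.7%, beside 18.2% of all genes), 2 higher and 3 lower, and 1 of 30 with marker scores (3.33%, beside 5.52% of all genes). Whether these shares differ from those of all genes was not tested.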

How the data were processed

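Striatal RNA of 416 mice was sequenced from ribosomal RNA depleted, stranded libraries, per the labels' protocols. The authors deposited estimated counts per Ensembl gene ID in 1 table; aligner, counter and genome build are not given in the sources used here. Columns were joined to samples by the animal number in the titles, with 0 columns left over. Of the values, 20.3% were not whole (tolerance 1e-06), and rounding them moved 0.005% of the total. IDs were named through the annotation given (46005 of 46517). Each library is a separate animal per the titles, and p-values measure the spread between these animals.

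The members and gene lists were chosen with earlier results of these data known. Every member is named. Of further imprinted genes, up to 6 called with the largest change were named, and of genes outside the list, the 3 with the highest r to the most abundant member of a domain. Genes were filtered with filterByExpr (minimum count 10), TMM scaled and fitted on sex and generation with edgeR 4.0.16 in R 4.3.3, by its quasi-likelihood test with Benjamini-Hochberg adjustment over all genes at 0.05. DESeq2 1.42.0 and limma 3.58.1 were alternatives, as were other scaling and filters, marker scores, and leaving libraries out. Log2 CPM used a prior count of 2. Shapes were fitted with mclust 6.1.1, and correlations were permuted with numpy 2.4.6. The fits were tested on simulated data. Pairs were adjusted over 27, and 24 are printed over all libraries: those with Ndn are given within its groups. Relations with scores were adjusted over 476, and those of the choroid plexus score or Ndn were taken within groups, since each falls into 2. Within its groups, relations of the choroid plexus score were adjusted among themselves, some with 10000 resamples only. A low library had a total under 0.5 of the median or a correlation over 4 scaled median deviations below it. Total counts of 20331737 to 77458200 set the precision.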

Additional observations from a re-analysis of the deposited data

How the results depend on the processing

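No paired analysis was made, as each library is a separate animal per the titles. The labels give no replicate number, and the numbers used here follow accession order. The count of members called for generation 23 minus 21 lay between 18 and 23 under every alternative run. For generation 22 minus 21 it was 21, against 8 in males alone and 15 in females alone. For generation 23 minus 22 it was 10, against 4 with marker scores, 4 in females alone and 3 in males alone. For female minus male it was 0, and 2 with marker scores. The cause of these differences was not tested; fits of a single sex hold fewer libraries. Leaving out in turn each of the 17 libraries that held the highest level of a member (limma, which called 0, 18, 22 and 10 with all libraries) gave 0 for sex, and 17 to 18, 22 to 23 and 10 for the generation contrasts 22 minus 21, 23 minus 21 and 23 minus 22. Other libraries were not left out singly. DESeq2 called 0, 20, 22 and 11 members in the same order of contrasts.

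With marker scores the log2 fold change for generation 23 minus 21 turned to −0.084 for Snrpn, −0.006 for Mest, 0.065 for H19, 0.031 for Sgce, −0.094 for Gnas and −0.058 for Peg13. Of 3807 member fold changes under alternatives, 3517 kept the side of the threshold, and where called also the direction. Signs were not compared for values called in neither fit. The 3807 include the fits that left out a single library, which share nearly all libraries. The count of pairs correlated within a domain was 19, and 12 in generation 22 alone, which holds fewer libraries. Igf2r with Airn turned to r = −0.001 in residuals and −0.014 without low libraries, and Ube3a with Magel2 to 0.204 in generation 23 alone. The count of members with a BIC gain over 10 was 16, and 7 both in residuals and without low libraries. The scarce genes H19, Calcr and Asb4 rest on few counts per library.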
